A study of Mus musculus with 7 samples.

Results

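Cysteine tRNAs deliver cysteine to the ribosome, and they were counted here in extracellular vesicles (EVs) and whole cells of a mouse macrophage line. All gene rows of the deposited table whose name holds tRNA-Cys- were taken, leaving out exon, intron and UTR pieces. There were 22 such rows among 224 named tRNA gene rows and 3894 rows for whole RNAs, of 580839 rows in all. All 22 carry the anticodon GCA, so they form 1 of 51 anticodon families, called the Cys-GCA family below.

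A tRNA-Cys with this anticodon reads both cysteine codons and is charged by cysteinyl-tRNA synthetase. tRNA genes are transcribed by RNA polymerase III, and the transcripts are trimmed at both ends and given a CCA tail before export. Dis3l2 is a 3′ to 5′ exoribonuclease that prefers RNAs with an added oligo(U) tail and, in human cells, takes part in the decay of aberrant structured noncoding RNAs. EVs, membrane particles that cells release, are known to carry short RNA polymerase III transcripts, tRNAs and their fragments among them. The counts do not tell a full-length tRNA from a fragment of it.

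The 7 libraries came from RAW264.7, an established mouse macrophage line, and every culture received 1 µg/mL doxycycline. The 5 EV libraries were, per the labels, shDis3l2 + Dis3l2 D389N (its genotype label reads Dis3l2r D389N), shDis3l2 + Dis3l2r, shDis3l2 + Vector, shDis3l2 and shNS, here called D389N, Dis3l2r, Vector, shDis3l2 and shNS. The 2 whole-cell libraries were shDis3l2 and shNS. The first 3 EV lines thus carry the shDis3l2 construct too, and shNS is the line that shDis3l2 is set against. The labels name no promoter and do not say whether a line is 1 clone. D389N is an amino acid change in the exonuclease domain of Dis3l2. The lines shDis3l2, Vector and D389N were placed in a class without active Dis3l2, and shNS and Dis3l2r in a class with it. For shDis3l2 and Vector the class rests on the construct in the genotype, and how much Dis3l2 remained is not known. The labels do not state that D389N is inactive; its place in that class rests on background knowledge of the enzyme. EVs were collected from medium over 24 h, banded in sucrose and digested with 20 U micrococcal nuclease. Libraries were made from 50 ng RNA by template switching with Induro, a heat-stable group II intron enzyme that can read through folded RNAs such as tRNA. rRNA depletion is stated for the cell RNA and not for the EV RNA.

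Each line and compartment has 1 library, so no comparison of 2 libraries has a replicate check or a p-value. Totals over the whole-RNA rows were 13439408 to 25177102 estimated counts in the EV libraries, and 32342600 and 37041326 in shDis3l2 and shNS cells. Named tRNAs held 70.19% to 76.9% of these totals in EVs, against 9.094% in shDis3l2 cells and 13.72% in shNS cells. The most abundant transcript of the cells held 46.07% in shDis3l2 cells and 19.3% in shNS cells, against 2.083% to 8.3% in EVs. The reduction of Dis3l2 and the macrophage markers could not be checked, because 0 of 3639 transcript IDs were paired with a gene name.

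In mouse RefSeq (GRCm38.p6, the build named for the deposited table being GRCm38), 56 of 430 annotated tRNA genes are n-TCgca, the symbol of nuclear tRNA-Cys genes. A cluster of 48 lies within chr6:47978997-48363603, and 5 lie within chr11:97769829-97988994. Of the rest, 2 lie within chr9:104400120-104404127 and 1 lies at chr17:71599271-71599342. Their length is 72 bases in 55 genes and 70 bases in the other. Row names such as tRNA-Cys-GCA-3-1 follow the tRNA naming scheme in which the first number marks a distinct mature sequence and the last a gene copy. All 22 rows end in 1, and 0 of them could be paired with an n-TCgca symbol, so a row is not placed at any gene here. Near-identical tRNA-Cys sequences share reads, and estimated counts divide such reads between rows. The sum of the family is therefore the main level, and the division between its rows is uncertain.

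Cys-GCA tRNAs took a larger share of the counts in every EV library than in either cell library. The family reached 25191 CPM, the usual depth-scaled count, here with the whole-RNA rows as depth, in D389N EVs, 19410.2 CPM in Dis3l2r EVs, 13591 CPM in Vector EVs, 10211 CPM in shDis3l2 EVs and 14502 CPM in shNS EVs. It stood at 1885.5 CPM in shDis3l2 cells and 3936 CPM in shNS cells. The lowest EV library, shDis3l2, was 2.59-fold above the higher cell library, shNS, so the compartments did not overlap. The EV libraries differed among themselves by up to 2.47-fold, and the 2 cell libraries by 2.09-fold. In rising order the libraries ran shDis3l2 cells, shNS cells, then shDis3l2, Vector, shNS, Dis3l2r and D389N EVs. Exact 95% intervals, which cover counting error only, did not overlap between any neighbours in that order, but the spread between replicate libraries is not known. In bulk RNA, fewer cells or vesicles of a kind and less RNA in each cannot be told apart.

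Among tRNAs alone the compartments overlapped. Cys-GCA made up 3.37% of the tRNA counts in D389N EVs, 2.77% in Dis3l2r EVs, 1.77% in Vector EVs, 1.44% in shDis3l2 EVs and 1.93% in shNS EVs. The share was 2.07% in shDis3l2 cells and 2.87% in shNS cells, which is within the range of the EVs. The EV libraries averaged 2.25% ± 0.792 (SD, n = 5 lines), and the cell libraries 2.47% ± 0.562 (SD, n = 2 lines). Per base of median RefSeq gene length, Cys-GCA ranked 8, 8, 15, 18 and 11 of 47 families in D389N, Dis3l2r, Vector, shDis3l2 and shNS EVs. In shDis3l2 and shNS cells it ranked 13 and 10. It stood in the upper part of the list in every library.

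**Figure D1:**
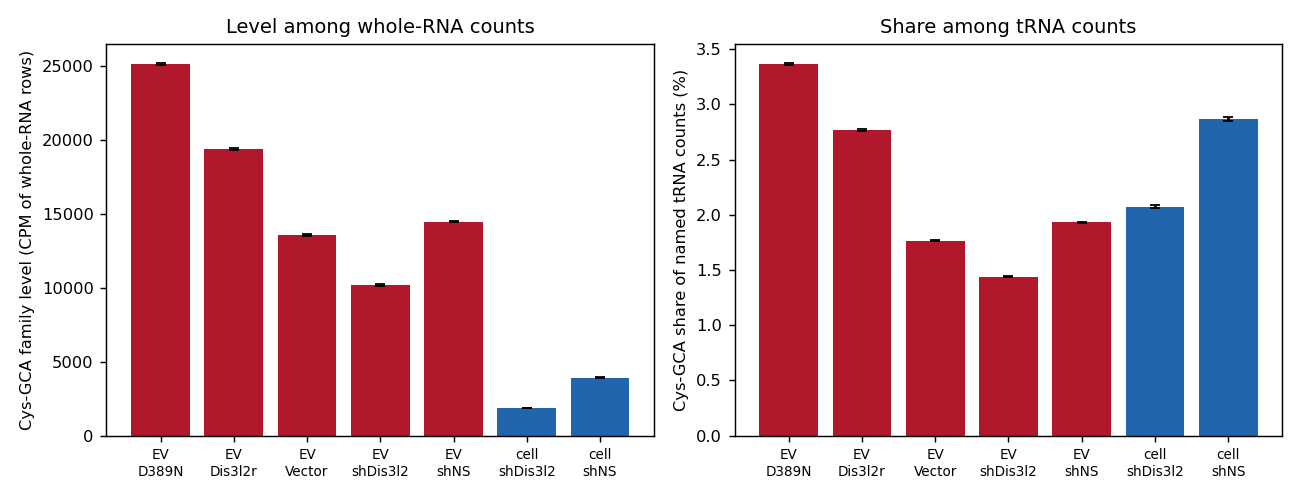
Level of the Cys-GCA family in each library, as CPM of whole-RNA counts (left) and as a percent of named tRNA counts (right), with EVs in red and cells in blue; bars are single libraries and the error bars are exact 95% intervals for counting error. On the left every EV bar stands above both cell bars, and on the right the cell bars (2.07% and 2.87%) fall inside the EV range of 1.44% to 3.37%.

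A few rows held nearly all of the family. The 3 most counted rows, tRNA-Cys-GCA-3-1, tRNA-Cys-GCA-2-1 and tRNA-Cys-GCA-5-1, took 98.2% of all cysteine tRNA counts, and 97.3% to 98.7% in single libraries. There were 9 rows with at least 100 counts over the 7 libraries. The other 13 summed to between 1 and 93.9 counts each, and together to 0.0129% to 0.0580% of the family in a library. Of these 13 rows, 5 were above 0 in all libraries and 8 were at 0 in at least 1 library. A count of 0 allows up to 3 counts. No pair of the 22 rows had the same counts in all 7 libraries.

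tRNA-Cys-GCA-3-1 was the leading row in every library. It had 20669 CPM in D389N EVs, 15305.5 CPM in Dis3l2r EVs, 10052 CPM in Vector EVs, 7444 CPM in shDis3l2 EVs and 10582 CPM in shNS EVs, against 1168 CPM in shDis3l2 cells and 2875 CPM in shNS cells. All EV libraries lay above both cell libraries. Its share of the family was 82.0% in D389N EVs, 78.9% in Dis3l2r EVs and 72.9% to 74.0% in the other EVs, against 62.0% in shDis3l2 cells and 73.0% in shNS cells. The share was highest in D389N EVs and lowest in shDis3l2 cells.

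tRNA-Cys-GCA-2-1 came next, with 2723 CPM in D389N EVs, 2398 CPM in Dis3l2r EVs, 2019 CPM in Vector EVs, 1815 CPM in shDis3l2 EVs and 2479 CPM in shNS EVs. Cells had 386 CPM (shDis3l2) and 694 CPM (shNS). This row varied less between EV libraries than tRNA-Cys-GCA-3-1 did, and its share of the family ran from 10.8% in D389N EVs to 17.8% in shDis3l2 EVs, against 20.5% in shDis3l2 cells and 17.6% in shNS cells. tRNA-Cys-GCA-5-1 had 1460.1 CPM in D389N EVs, 1334 CPM in Dis3l2r EVs, 1151 CPM in Vector EVs, 797 CPM in shDis3l2 EVs and 1185 CPM in shNS EVs, against 291 CPM in shDis3l2 cells and 314 CPM in shNS cells. The cell libraries were close to each other for this row, unlike for the preceding pair, so its share of the family was 15.4% in shDis3l2 cells against 7.98% in shNS cells. In EVs the share was 5.80% to 8.47%.

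A pair of low rows stood out by the size of their drop from EVs to cells. tRNA-Cys-GCA-8-1 had 166 CPM in D389N EVs, 162 CPM in Dis3l2r EVs, 132 CPM in Vector EVs, 54.9 CPM in shDis3l2 EVs and 98.9 CPM in shNS EVs. In shDis3l2 cells it had 2.21 CPM, from 71.4 counts, and in shNS cells 1.68 CPM, from 62.3 counts. tRNA-Cys-GCA-7-1 had 74.2 CPM in D389N EVs, 64.1 CPM in Dis3l2r EVs, 66.9 CPM in Vector EVs, 17.8 CPM in shDis3l2 EVs and 33.7 CPM in shNS EVs, against 1.63 CPM (52.8 counts) in shDis3l2 cells and 1.13 CPM (41.9 counts) in shNS cells. Both rows were higher in the 3 EV lines with an added construct than in the shDis3l2 and shNS EVs, with no overlap. The same held only narrowly for tRNA-Cys-GCA-4-1, described below, at 35.4 CPM in D389N EVs against 33.8 CPM in shNS EVs.

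The other 4 counted rows were also higher in EVs, by less. tRNA-Cys-GCA-1-1 had 53.7 CPM in D389N EVs, 65.8 CPM in Dis3l2r EVs, 84.9 CPM in Vector EVs, 46.7 CPM in shDis3l2 EVs and 65.2 CPM in shNS EVs, against 26.3 CPM in shDis3l2 cells and 27.5 CPM in shNS cells. tRNA-Cys-GCA-4-1 had 35.4, 56.0, 51.8, 22.2 and 33.8 CPM in the same EV libraries in that order, against 6.85 CPM in shDis3l2 cells and 15.4 CPM in shNS cells. For both rows the EV and cell libraries did not overlap. tRNA-Cys-GCA-17-1 had 6.95 CPM in D389N EVs, its lowest EV library, and 11.7 to 24.4 CPM in the other EVs, against 2.04 CPM in shDis3l2 cells and 5.16 CPM in shNS cells. tRNA-Cys-GCA-18-1 was at 0.271 to 1.71 CPM in EVs, against 0.124 CPM in shDis3l2 cells and 0.243 CPM in shNS cells, where it had 4 and 9 counts.

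**Figure D2:**
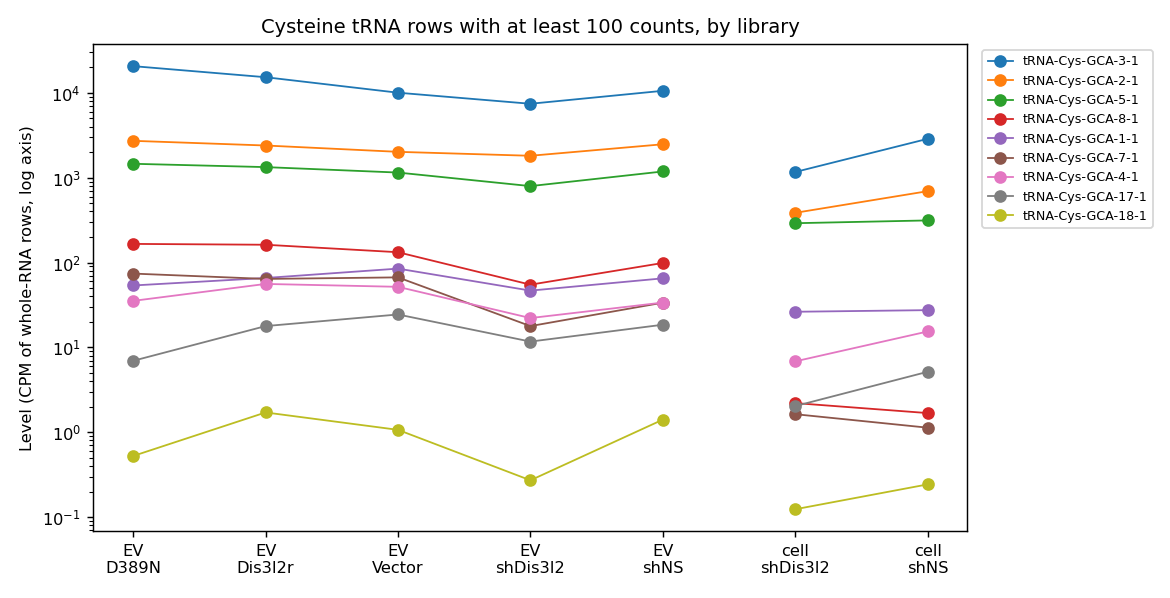
CPM of whole-RNA counts (log axis) of the 9 cysteine tRNA rows with at least 100 counts, by library, with lines joining the libraries of a compartment only to guide the eye. The rows keep nearly the same order across EVs, and tRNA-Cys-GCA-8-1 and tRNA-Cys-GCA-7-1 drop furthest in cells, to between 1.13 and 2.21 CPM.

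The comparison of EVs with whole cells asks which RNAs are relatively abundant in vesicles. In edgeR's quasi-likelihood test over the 7 libraries, with the Dis3l2 class as a covariate and Benjamini-Hochberg adjustment over all rows tested, 15 of the 22 cysteine rows passed the filter on low counts. Of these, 8 rose in EVs and 0 fell; over all 642 rows tested, 31.2% rose and 47.7% fell. A low row can pass that filter through the EV libraries alone, so these counts describe the rows that passed and not the 22. The median log2 fold change was 2.16 over the 15 cysteine rows, against −1.33 over all rows. Of 182 other tRNA rows tested, 134 rose and 8 fell, with a median of 2.36. Nuclease treatment, vesicle isolation and the stated rRNA depletion differ between the compartments along with the RNA source, and they cannot be told apart. The libraries of a compartment are different lines, not replicates of 1 line.

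Summed as a family, Cys-GCA was 2.60 log2 units higher in EVs (SE 0.517, edgeR adjusted p = 0.000469), on means of 16581 ± 5831 CPM in EVs and 2911 ± 1449.9 CPM in cells (SD, n = 5 and 2). All 5 EV libraries lay above both cell libraries. In this fit 20.2% of 495 rows and families rose; of the 49 other anticodon families 41 rose and 3 fell, their median was 2.57, and Cys-GCA ranked 25 of 50. Its difference was thus close to that of the tRNA families at large. With counts scaled to the tRNA total the family's difference was −0.10 (SE 0.418, edgeR adjusted p = 0.851). With scaling by TMM (trimmed mean of M-values) it was 4.88, and with DESeq2 size factors 7.21. Both sets of factors were computed after the tRNA rows were summed per family, so they differ from those of the single rows. With factors computed on unsummed rows, tRNA-Cys-GCA-3-1, the leading row, rose by 2.40 with TMM and 4.00 with DESeq2 size factors.

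Of the main rows, tRNA-Cys-GCA-3-1 rose by 2.79 on the log2 scale (SE 0.575, edgeR adjusted p = 0.000675). tRNA-Cys-GCA-2-1 rose by 2.16 and tRNA-Cys-GCA-5-1 by 1.98, each with an edgeR adjusted p under the threshold of 0.05. The largest differences among the 9 counted rows were those of tRNA-Cys-GCA-8-1, at 5.99 (SE 0.792, edgeR adjusted p = 1.6e-05), and tRNA-Cys-GCA-7-1, at 5.20 (SE 0.894, edgeR adjusted p = 0.000156). With the tRNA total as the scale, these were the cysteine rows that still rose, by 3.21 (edgeR adjusted p = 0.00506) and 2.43 (edgeR adjusted p = 0.0366), where 6.85% of all rows rose and 60.0% fell. tRNA-Cys-GCA-1-1 fell on that scale, by 1.51 (edgeR adjusted p = 0.0245), and on the whole-RNA scale its 1.24 missed the threshold (edgeR adjusted p = 0.0570, DESeq2 adjusted p = 0.0125).

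tRNA-Cys-GCA-17-1, at 2.31 (edgeR adjusted p = 0.027), and tRNA-Cys-GCA-4-1, at 1.97 (edgeR adjusted p = 0.0182), rose as well. Without the shDis3l2 cell library their edgeR adjusted p-values were 0.178 and 0.168, and with the most abundant transcript left out of the totals they were 0.0666 and 0.0588. In the 4 libraries of the shDis3l2 and shNS lines, with the line as a block, they were 0.0953 and 0.161. Scaled by TMM, that of tRNA-Cys-GCA-17-1 was 0.0504. Without the shNS EV library that of tRNA-Cys-GCA-17-1 was 0.0507, and without the Dis3l2r EV library that of tRNA-Cys-GCA-4-1 was 0.0595. tRNA-Cys-GCA-18-1 did not pass, at 2.47 (edgeR adjusted p = 0.0864). The other row among the 8 was tRNA-Cys-GCA-13-1, which is outside the 9 counted rows and is named after its values were seen. With almost no counts in cells it passed the filter through the EV libraries, so its call carries no weight. It had 14.1 counts in D389N, 8 in Dis3l2r, 40.1 in Vector, 8.06 in shDis3l2 and 11.5 in shNS EVs, against 1 in shDis3l2 cells and 0 in shNS cells (edgeR adjusted p = 0.0098). Its adjusted p was 0.0706 with no filter, 0.109 without the shDis3l2 cell library and 0.184 without the shNS cell library.

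Within a line, the EV to cell ratio can be read from a pair of libraries, without a test. A row counts as different where the pair has at least 100 counts, the ratio is at least 2-fold and the exact 95% interval excludes 1. The family was 2.44 log2 units higher in shDis3l2 EVs than in shDis3l2 cells (95% interval 2.42 to 2.45), and 1.88 higher in shNS EVs than in shNS cells (1.87 to 1.89). In the shDis3l2 line 7 of 8 measured cysteine rows were higher, against 33.1% of all measured rows. In the shNS line 8 of 8 were higher, against 32.0% of all measured rows. With a minimum of 20 counts, 11 of 14 rows in the shNS line were higher and 1 was lower. The lower row was tRNA-Cys-GCA-6-1, with 1.81 counts in shNS EVs and 18.8 in shNS cells. The share of all rows at that minimum is not given here, and their median moved from −3.54 to −1.86. A low row can also reach 20 counts through the EV library alone. These counts are therefore not read as a result about the cysteine rows. The family ranked 34 of 49 in the shDis3l2 line and 30 of 49 in the shNS line, below the median of the other families in both (2.84 and 2.14).

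The rows did not share 1 ratio. tRNA-Cys-GCA-8-1 had the highest, at 4.64 in the shDis3l2 line and 5.88 in the shNS line, followed by tRNA-Cys-GCA-7-1, at 3.45 and 4.89 in the same lines. tRNA-Cys-GCA-1-1 was lowest in the shDis3l2 line, at 0.83 (−2.14 scaled to the tRNA totals) against 1.25 in the shNS line, and tRNA-Cys-GCA-4-1 was lowest in the shNS line, at 1.13 against 1.69 in the shDis3l2 line. Scaled to the tRNA totals, 6 of these 8 rows in the shNS line had ratios below 0, tRNA-Cys-GCA-3-1 at −0.57 among them, while tRNA-Cys-GCA-8-1 stayed at 1.68 in the shDis3l2 line and 3.43 in the shNS line. The division of reads between near-identical sequences makes these ratios of single rows less certain than that of the family.

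**Figure D3:**
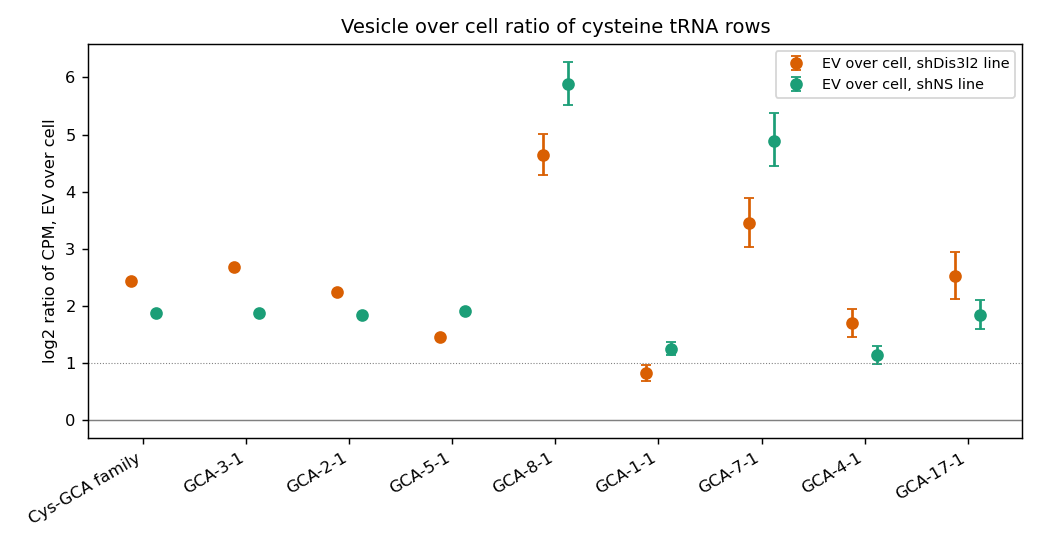
log2 ratio of CPM in EVs over cells of the same line, for the Cys-GCA family and the 8 rows with at least 100 counts in both pairs, for the shDis3l2 line (orange) and the shNS line (green); error bars are exact 95% intervals for counting error and the dotted line marks a 2-fold ratio. tRNA-Cys-GCA-8-1 and tRNA-Cys-GCA-7-1 stand highest in both lines, at 3.45 to 5.88, and tRNA-Cys-GCA-1-1 in the shDis3l2 line lies under the dotted line at 0.83.

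Comparisons of the Dis3l2 lines ask which RNAs depend on the enzyme. In cells, cysteine tRNAs were lower with the knockdown construct. The family was 0.80 log2 units lower in shDis3l2 cells than in shNS cells (log2 ratio −0.80, 95% interval −0.81 to −0.78, scaled by TMM), short of 2-fold. Scaled to whole-RNA totals it was −1.06 and to totals of all rows −1.14, past 2-fold, with 3 rows at least 2-fold lower on each scale. Of 7 measured rows, 2 were at least 2-fold lower, tRNA-Cys-GCA-3-1 at −1.03 and tRNA-Cys-GCA-17-1 at −1.07, where 24.0% of all measured rows were lower. tRNA-Cys-GCA-2-1 stood at −0.58, tRNA-Cys-GCA-5-1 at 0.16 and tRNA-Cys-GCA-8-1 at 0.66. With totals of the whole-RNA rows as the scale, tRNA-Cys-GCA-5-1 was at −0.11, so its direction depends on the scaling. Other families had a median of −0.69, and Cys-GCA ranked 32 of 48. The transcript with 46.07% of shDis3l2 cell counts moved with this comparison, and with it left out of the totals the family stood at −0.48 and 0 rows reached 2-fold.

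In EVs, the family was also lower with the knockdown construct. Its log2 ratio of shDis3l2 to shNS EVs was −0.41 (95% interval −0.42 to −0.40). All 8 measured cysteine rows had ratios below 0, between −0.82 for tRNA-Cys-GCA-7-1 and −0.36 for tRNA-Cys-GCA-2-1, and 0 reached 2-fold, where 11.2% of all measured rows did. The other families had a median of −0.03, and Cys-GCA ranked 42 of 49. The EV and cell ratios were not tested against each other, and which was further from 0 depended on the scaling (−0.43 in EVs and −0.47 in cells with tRNA totals, −0.53 and −0.48 without the most abundant transcript).

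The family was not lower in Dis3l2r EVs than in Vector EVs. Its log2 ratio of Dis3l2r to Vector EVs was 0.44 (95% interval 0.44 to 0.45), the highest of 49 families, whose median without Cys-GCA was −0.25. With 0 of 8 cysteine rows at 2-fold, where 32.1% of all measured rows were, none of the rows stood apart by the size rule. tRNA-Cys-GCA-3-1 was at 0.54, tRNA-Cys-GCA-1-1 at −0.44 and tRNA-Cys-GCA-17-1 at −0.52.

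D389N EVs held the most cysteine tRNA of all libraries. The family's log2 ratio of D389N to Vector EVs was 1.14 (95% interval 1.14 to 1.15), rank 3 of 49 families, of which 8.16% were at least 2-fold higher, with a median of 0.10 for the others. tRNA-Cys-GCA-3-1 was higher by 1.29, tRNA-Cys-GCA-2-1 stood at 0.69 and tRNA-Cys-GCA-5-1 at 0.60. tRNA-Cys-GCA-17-1 went the other way, at −1.56, so 2 of 8 rows passed the size rule in opposite directions, where 23.2% of all measured rows did. The family's ratio was 0.83 to 0.93, under 2-fold, when counts were scaled to the total of the whole-RNA rows, of all rows, of the rows without the most abundant transcript, or of the tRNAs.

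Set against Dis3l2r EVs, D389N EVs had a family ratio of 0.61 (95% interval 0.60 to 0.61), rank 15 of 49, and 1 of 8 rows at 2-fold, tRNA-Cys-GCA-17-1 at −1.13, where 24.5% of all measured rows were. Vector and shDis3l2 EVs are both in the class without active Dis3l2. The family ratio of Vector to shDis3l2 EVs was 0.45 (95% interval 0.44 to 0.46). Of 8 rows, 4 were at least 2-fold higher in Vector EVs, where 8.91% of all measured rows were, namely tRNA-Cys-GCA-7-1 at 1.94, tRNA-Cys-GCA-8-1 at 1.31, tRNA-Cys-GCA-4-1 at 1.26 and tRNA-Cys-GCA-17-1 at 1.09. With TMM, the family's ratio between these libraries of the same class was close to its 0.44 between Dis3l2r and Vector EVs. Which of these was larger depended on the scaling, at 0.58 against 0.22 with DESeq2 size factors and 0.30 against 0.65 with tRNA totals. The ratio between D389N and Vector EVs, of the same class too, was larger, at 1.14 with TMM. These comparisons share the Vector, Dis3l2r, D389N or shDis3l2 EV library with each other, so their values are not independent.

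**Figure D4:**
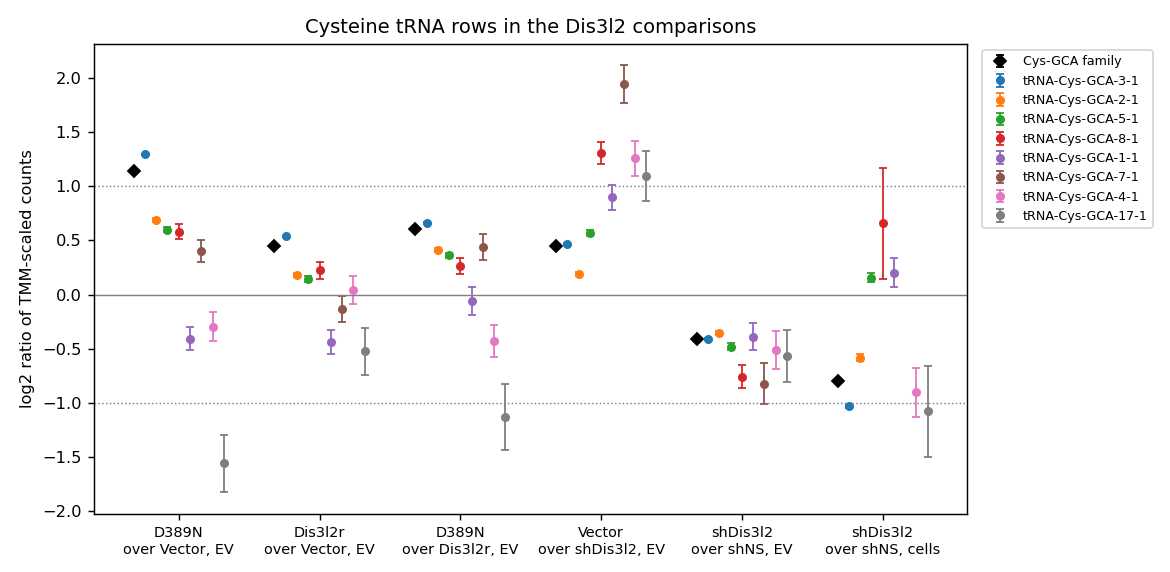
log2 ratio of TMM-scaled counts of the Cys-GCA family (black diamonds) and of its rows with at least 100 counts in the pair, for the 6 comparisons between Dis3l2 lines; error bars are exact 95% intervals for counting error and dotted lines mark 2-fold. tRNA-Cys-GCA-17-1 lies below −1 in both D389N comparisons, and 4 rows lie above 1 for Vector over shDis3l2 EVs.

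**Figure D5:**
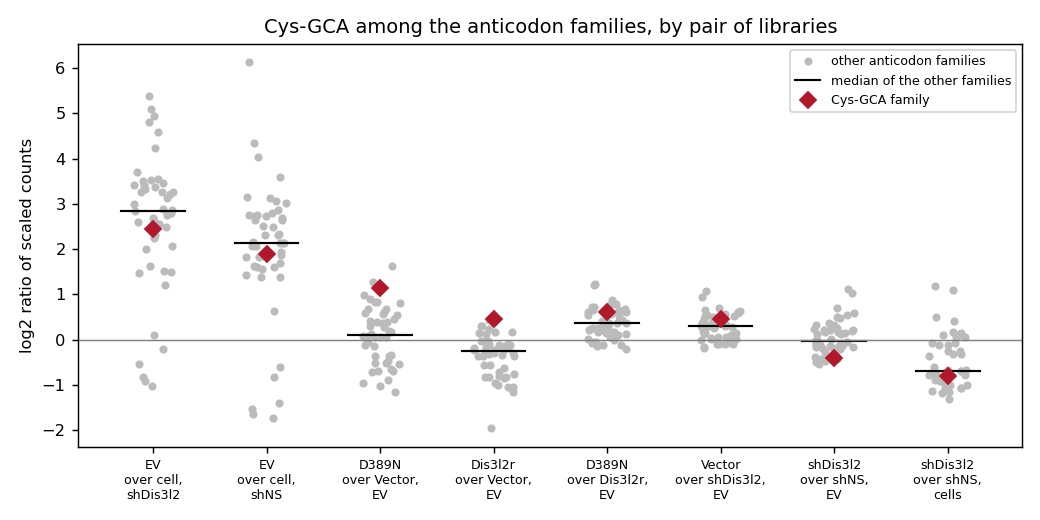
log2 ratio of each anticodon family with at least 100 counts (grey), the median of the other families (black line) and Cys-GCA (red) in the 8 comparisons of 2 libraries, scaled by whole-RNA totals for EVs over cells and by TMM for the others. Cys-GCA is the top family for Dis3l2r over Vector EVs at 0.44, ranks 3 of 49 for D389N over Vector EVs at 1.14, and within the body of the families for EVs over cells.

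Across the 5 EV libraries together, cysteine tRNAs were not called different by Dis3l2 class. edgeR's quasi-likelihood test of D389N, Vector and shDis3l2 EVs against Dis3l2r and shNS EVs tested 14 of the 22 rows, and 0 passed, with 0 at an unadjusted p under 0.05 and 0 by DESeq2. Over all 575 rows tested, 0.174% passed, and with tRNAs summed as families 0.233% of 429. The family's log2 fold change was 0.44 with TMM scaling computed after all tRNA rows were summed per family (SE 0.525, edgeR adjusted p = 0.707). With only the cysteine rows summed, TMM scaling gave 0.24 (SE 0.46, edgeR adjusted p = 0.884). The family's direction turned with whole-RNA totals, to −0.054. The levels on the whole-RNA scale were 25191 CPM (D389N), 13591 CPM (Vector) and 10211 CPM (shDis3l2) without active Dis3l2, against 19410.2 CPM (Dis3l2r) and 14502 CPM (shNS) with it. The classes overlapped, with the D389N library above and the Vector and shDis3l2 libraries below both libraries with active Dis3l2. Without the D389N library the value was −0.34. The rows, with TMM computed on unsummed rows, ranged from −2.18 to 0.93 with a median of 0.07, against 0.37 for other tRNA rows.

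The families whose levels followed Cys-GCA most closely over the 7 libraries were Leu-TAA, Thr-TGT and Thr-CGT, tRNA families for leucine and threonine. The measure was the root mean square difference of log2(CPM + 1) after centring each family over the libraries, which was 0.216 for Leu-TAA, 0.270 for Thr-TGT and 0.292 for Thr-CGT, the smallest of 49. Leu-TAA had 3421 CPM in D389N EVs, 2755 CPM in Dis3l2r EVs, 2685 CPM in Vector EVs, 1929 CPM in shDis3l2 EVs and 2279 CPM in shNS EVs, against 267 CPM in shDis3l2 cells and 519 CPM in shNS cells. Like Cys-GCA, it was highest in D389N EVs and lowest in shDis3l2 cells. The 7 points share their libraries and depth, so this is a description of these libraries.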

How the data were processed

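RNA of 5 EV and 2 whole-cell libraries of RAW264.7 was measured. The table that the authors deposited holds unscaled estimated counts. The tools named in the submitters' processing notes are Salmon, Novoalign, UMI-tools and cutadapt, and the builds GRCm38 and mm10; tool versions, the order of steps, read deduplication and strand handling were not given in the sources used here. From the 3894 whole-RNA rows, CPM, family sums and shares were computed, with exact 95% intervals that cover counting error only. Estimated counts were rounded to whole numbers and tested with edgeR 4.0.16 in R 4.3.3 (quasi-likelihood, filterByExpr, Benjamini-Hochberg, threshold 0.05), scaled by whole-RNA totals for EVs against cells and by TMM for Dis3l2 class. The SE is the log2 fold change divided by the root of F. DESeq2 1.42.0, other scalings, filters and left-out libraries were alternatives. Pairs of libraries were compared by ratio with a conditional binomial interval. The fits were tested on simulated data scaled by TMM. There the fit by Dis3l2 class recovered 22.05% of changes of 1 log2 unit and 93.81% of changes of 2. That of EVs against cells recovered 38.66% and 97.99%, though the reported fit used whole-RNA totals. The spread between simulated libraries was a set value and was not taken from these libraries. Intervals came from scipy 1.17.1, tables from pandas 2.3.3 and numpy 2.4.6, and plots from matplotlib 3.10.9, in Python 3.11.15.

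Every tRNA-Cys row was counted. Rows with at least 100 counts over the 7 libraries were described singly, the rest by range, with the 3 families nearest in profile. Members and lists were chosen with earlier results of these data known. Lists by gene symbol (cysteine tRNA charging, processing and decay genes, and macrophage markers) had 0 of 3639 transcript IDs paired with a name and have no result. Libraries stand as separate samples in the labels, which do not say whether cultures were independent; p-values measure the spread between libraries.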

Additional observations from a re-analysis of the deposited data

Results flagged for a closer look

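For 3 cysteine rows the shDis3l2 to shNS log2 ratio had opposite signs in EVs and in cells. It was −0.39 in EVs and 0.20 in cells for tRNA-Cys-GCA-1-1, −0.48 in EVs and 0.16 in cells for tRNA-Cys-GCA-5-1, and −0.76 in EVs and 0.66 in cells for tRNA-Cys-GCA-8-1. Each value rests on 1 library a side, and the difference between EVs and cells was not tested. With totals of the whole-RNA rows as the scale, the cell values were −0.06 for tRNA-Cys-GCA-1-1 and −0.11 for tRNA-Cys-GCA-5-1, below 0 like their EV values, and 0.39 for tRNA-Cys-GCA-8-1. The counts of tRNA-Cys-GCA-8-1 in cells were 71.4 (shDis3l2) and 62.3 (shNS).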

How the results depend on the processing

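The direction of the EV to cell difference depended on whether counts were set against all RNA or against tRNA. Scaled to tRNA totals, the family stood at −0.10 over 7 libraries, −0.53 in the shDis3l2 line and −0.57 in the shNS line. Over 7 libraries 2 of 15 cysteine rows were called higher and 1 lower, where 6.85% and 60.0% of all rows tested were. By the size rule 1 of 8 rows was higher and 3 were lower in the shDis3l2 line. In the shNS line 2 of 8 were higher and 2 lower. The share of all rows on that scale is not given here for these pairs. On that scale over 7 libraries, rows 1-1, 2-1, 4-1, 5-1, 17-1 and 18-1 of tRNA-Cys-GCA stood at −1.51, −0.56, −0.74, −0.77, −0.40 and −0.24. In the shDis3l2 line 1-1, 2-1, 3-1, 4-1, 5-1 and 17-1 stood at −2.14, −0.73, −0.29, −1.27, −1.51 and −0.44, and in the shNS line 1-1, 2-1, 3-1, 4-1, 5-1 and 17-1 at −1.21, −0.61, −0.57, −1.32, −0.53 and −0.61. Under the other settings over 7 libraries the family stayed at 2.09 to 7.21 and past the threshold. The highest values, 4.88 and 7.21, used TMM and DESeq2 size factors computed after the tRNA rows were summed per family. On unsummed rows these scalings gave 2.40 and 4.00 for tRNA-Cys-GCA-3-1. Leaving out 1 library gave 2.11 to 3.12 for the family, with 7 to 8 rows called where that was an EV library. Both ends of that range came from fits with 1 cell library left, at 2.11 without shDis3l2 cells and 3.12 without shNS cells. Numbers of rows called are not given for those fits.

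By Dis3l2 class in EVs, the family was −0.054 with whole-RNA totals, −0.12 without the most abundant transcript and −0.10 with tRNA totals. With TMM and only the cysteine rows summed it was 0.24. None of these passed the threshold. Leaving out 1 library gave −0.34 to 0.59.

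Pair values of the family follow for TMM or, where that was the scale used, whole-RNA totals, then DESeq2 size factors, totals of all rows, totals without the most abundant transcript and, for Dis3l2 lines, tRNA totals. EV over cell gave 1.96, 3.16, 2.73 and 1.60 in the shDis3l2 line and 1.62, 2.98, 2.15 and 1.65 in the shNS line. D389N over Vector gave 0.89, 1.10, 0.83, 0.91 and 0.93 (1 row called with all rows). Dis3l2r over Vector gave 0.51, 0.22, 0.34, 0.61 and 0.65. D389N over Dis3l2r gave 0.38, 0.77 (0 rows called), 0.49, 0.30 and 0.28. Vector over shDis3l2 gave 0.41, 0.58, 0.47, 0.39 and 0.30. shDis3l2 over shNS gave −0.51, −0.48, −0.56, −0.53 and −0.43 in EVs and −1.06, −0.77, −1.14, −0.48 and −0.47 in cells, with 0 rows called in the last of these and without the transcript. A minimum of 20 counts gave 2 of 13 rows lower for shDis3l2 over shNS EVs. It gave 1 higher and 2 lower of 14 for Dis3l2r over Vector. For D389N over Dis3l2r 3 of 13 were lower, and for Vector over shDis3l2 8 of 13 were higher. A minimum of 500 counts gave 1 of 5 lower for shDis3l2 over shNS cells and 0 of 7 called for D389N over Dis3l2r. The shares of all rows at these minimums are not given here, so these counts are not read as results about the cysteine rows. The causes were not tested.

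The labels carry no replicate numbers, so libraries could be paired only by line. A further fit took the 4 libraries of the shDis3l2 and shNS lines, with the line as a block. The family difference between EVs and cells was 2.16 there (edgeR adjusted p = 0.0122). Of 11 cysteine rows tested 6 were higher, where 176 of all 604 rows tested were, against 8 of 15 over 7 libraries. The 6 include tRNA-Cys-GCA-13-1, whose call carries no weight. tRNA-Cys-GCA-4-1, at 1.41, and tRNA-Cys-GCA-17-1, at 2.18, lost their calls.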
